A study of Mus musculus with 6 samples.

Results

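Isolated mouse islets that had been cultured with vehicle alone made up 3 of the 6 samples of the series, and the transcriptome of these 3 libraries is described here. Every row of the deposited table was used, 30146 probe rows that name 21400 genes. The islets came from male C57Bl/6 mice, genotype WT, and were held for 48 h in complete RPMI medium with 10% FBS and 1% PenStrep to which the vehicle, 0.9% saline, was added, at 37 C and 5% CO2. Islets from each of 3 mice were divided between this vehicle arm and an arm that received cisplatin, which is not analysed here. The 3 vehicle libraries are therefore from separate mice, and their spread holds animal, islet preparation and assay variation together. Whole islets were lysed without sorting, so each library mixes all cell types of the preparation, and fewer cells of a type cannot be told apart from less RNA per cell.

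Islets are clusters of endocrine cells in the pancreas. Beta cells make insulin and amylin, alpha cells make glucagon, delta cells make somatostatin and PP cells make pancreatic polypeptide. Each hormone is made as a larger precursor in the endoplasmic reticulum, cut by prohormone convertases inside secretory granules, and released when the cell is stimulated. In beta cells glucose is taken up and metabolised, the rise in ATP closes the ATP-sensitive potassium channel, and calcium entry through voltage-gated channels triggers granule fusion. Mice carry a pair of insulin genes, Ins1 and Ins2.

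TempO-Seq was used to measure RNA: 2 neighbouring oligonucleotides on a transcript are joined, and the joined product is amplified and sequenced straight from lysate. Each row counts ligations at 1 short site, so transcript length does not enter a count, but probes differ in how well they capture their target. Ranks below are therefore ranks of probe signal. Levels are CPM (counts scaled to a common library size with TMM factors), given for vehicle libraries 1, 2 and 3 in that order or as mean ± SD (n = 3). A gene with several probes is represented by its most abundant probe unless stated. The libraries held 1998063, 1470227 and 2272276 counts.

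Library 2 stood apart from the other 2 libraries, and this touches many of the levels below. Across detected rows, those with 10 or more counts in every library, the Pearson correlation of log2 CPM was 0.960 between libraries 1 and 3, but 0.896 between libraries 1 and 2 and 0.900 between libraries 2 and 3. The median row differed 1.22-fold between libraries 1 and 3 and 1.41-fold in both pairs with library 2. Of 8805 detected rows, 488 lay at least 2-fold lower in library 2 than in both others (5.54%) and 365 at least 2-fold higher (4.15%). Library 1 was lower than both others by that margin in 77 rows and higher in 34, and library 3 in 106 and 26. Among the 6770 detected genes library 1 was the highest in 28.5%, library 2 in 40.9% and library 3 in 30.6%, and they were the lowest in 31.1%, 40.1% and 28.8%. Library 2 was also the shallowest. The minimum of 10 counts in every library leaves out rows that fell under it in library 2 alone. Without library 2, 10290 rows were detected, against 9061 without library 1 and 9031 without library 3. Counts and shares of rows or genes low in library 2, here and below, cover only those that reached 10 counts in it. The genes low in library 2 had a median genomic span of 31.1 kb, those high in it 24.3 kb and all detected genes 24.8 kb. A longer span was not particular to library 2. The median was 22.5 kb for genes low in library 1 and 37.5 kb for those low in library 3. It was 32.1 kb for genes high in library 1 and 20.8 kb for those high in library 3. The part of depth and gene length in the difference was not tested.

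**Figure D1:**
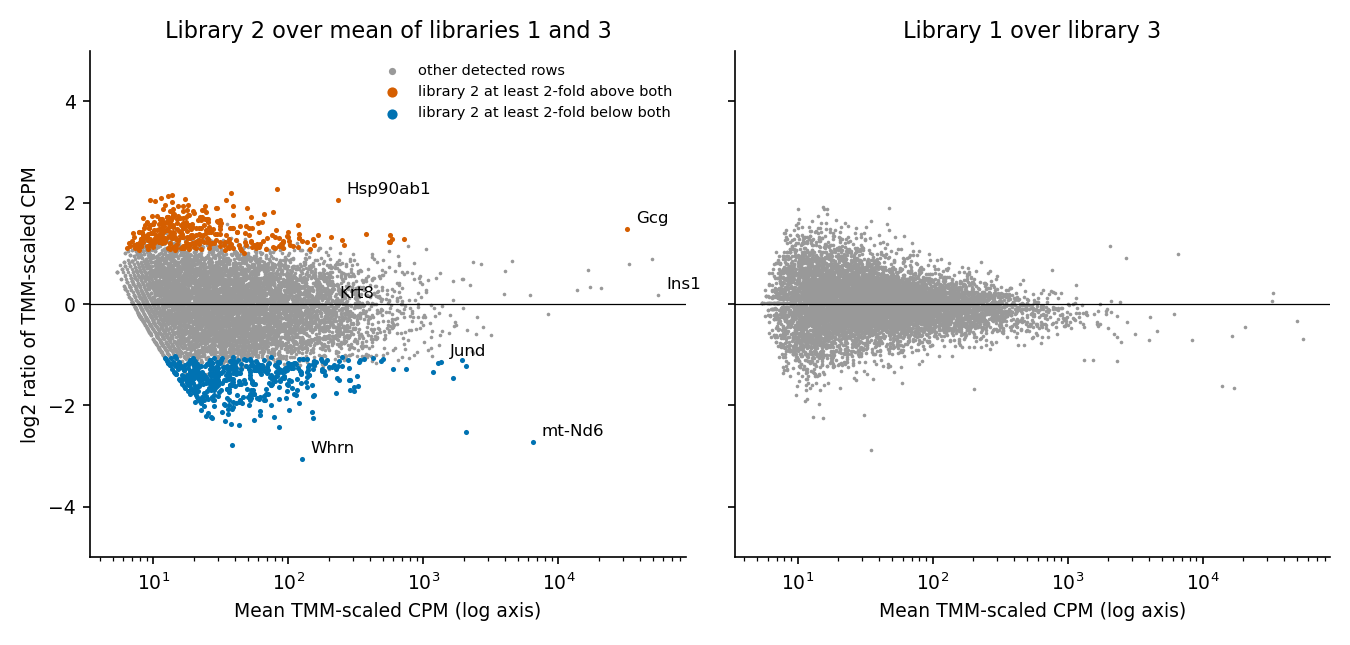
Log2 ratio of TMM-scaled CPM (y axis) against mean CPM (log x axis) for each detected row, as library 2 over the mean of libraries 1 and 3 on the left and library 1 over library 3 on the right. The left cloud is wider: 365 rows (orange) lie at least 2-fold above both other libraries and 488 (blue) at least 2-fold below. Gcg and the most abundant Hsp90ab1 probe are among the high and mt-Nd6, Whrn and Jund among the low.

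Some 6770 genes were detected, 31.6% of all genes on the panel. This share is the background for the detected counts of all lists and families below. Between 9783 and 11216 rows reached 10 counts in a single library, and 7873 rows (26.1%) had 0 counts in all 3. Signal was concentrated in few rows. The 10 most abundant rows held 19.9%, 31.1% and 24.3% of the counts of libraries 1, 2 and 3, and the 100 most abundant held 38.1% ± 4.78. It took 356 rows to reach 50% of the mean CPM and 4732 rows to reach 90%. Only 64 rows lay at 1000 CPM or more and 8 at 10000 CPM or more, against a median of 33.7 CPM for detected rows. Library 2 was the most concentrated and library 1 the least.

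**Figure D2:**
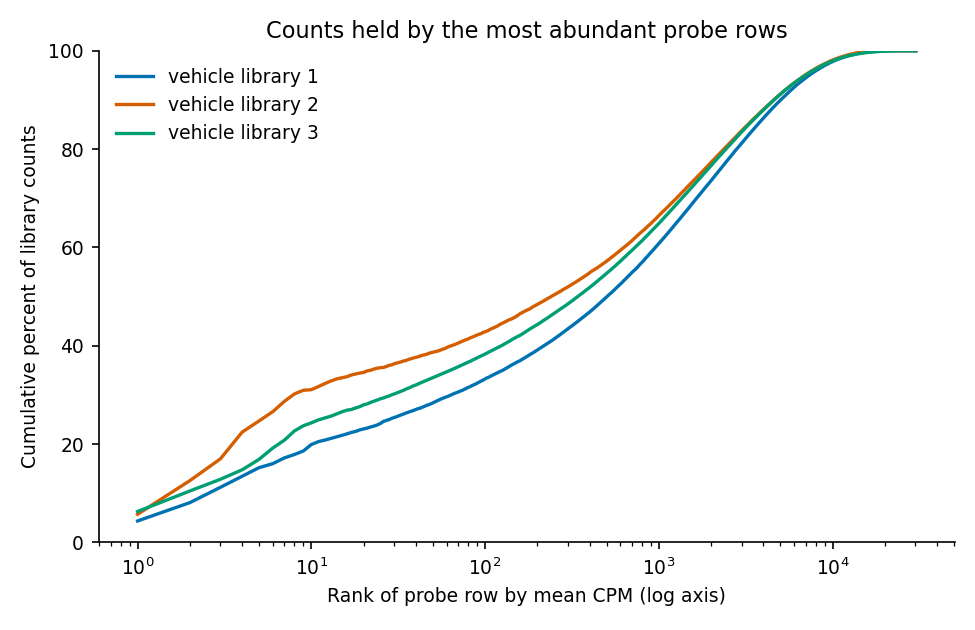
Cumulative percent of library counts (y axis) against the rank of the probe row by mean CPM (log x axis), 1 line per vehicle library. At the 10 most abundant rows the lines stand at 19.9% (library 1), 31.1% (library 2) and 24.3% (library 3) and they converge at high ranks.

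Hormone genes took the first 4 ranks. Ins1, which encodes insulin 1, was the most abundant row with 40352, 59785 and 65207 CPM. Iapp, which encodes amylin, the peptide stored and released with insulin, reached 34454, 71544 and 43252 CPM. Ins2, which encodes insulin 2, reached 28828, 46298 and 24741 CPM. Ins1 was lowest in library 1, whereas Iapp and Ins2 were highest in library 2. Gcg, the glucagon precursor of alpha cells, stood at 20733, 56772 and 19927 CPM. Libraries 1 and 3 were close to each other for Gcg and library 2 was 2.85-fold above the lower of them, so its mean of 32477 ± 21044 CPM was 20329.8 CPM without library 2. The order of the first 4 rows did not exceed their spread: the mean ± SD ranges of neighbours overlapped, and in library 2 Iapp ranked 1, Ins1 2 and Gcg 3.

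The insulin rows together held 7.81%, 10.8% and 9.09% of the counts of libraries 1, 2 and 3, and the Gcg row held 2.24%, 5.44% and 1.92%. The ratio of Gcg to Ins1 counts was 0.514, 0.950 and 0.306. The ratio of Ins1 to Ins2 was 1.40, 1.29 and 2.64, so library 3 carried more Ins1 signal per Ins2 signal than the others. These ratios compare probes and are not ratios of molecules or cells. Sst, the somatostatin gene of delta cells, was at rank 17 with 2835, 3740.4 and 1509 CPM, lowest in library 3. Ppy, the pancreatic polypeptide gene, had 672, 1207 and 424 CPM, and Pyy, which encodes peptide YY, had 411, 902 and 359 CPM. Both were highest in library 2 and lowest in library 3, as Sst was. Ghrl, the ghrelin gene, stayed under the detection minimum in library 1, with 7, 42 and 12 counts, and Npy, the neuropeptide Y gene, had 4, 0 and 4 counts. Of 9 listed hormone genes 7 were detected, against 31.6% of all genes, and 6 of these 7 were highest in library 2, against 40.9% of all detected genes. Their median highest-to-lowest ratio was 2.48, against 1.62 over all detected rows. All rows of the hormone list together took 14.2%, 23.6% and 15.4% of counts.

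**Figure D3:**
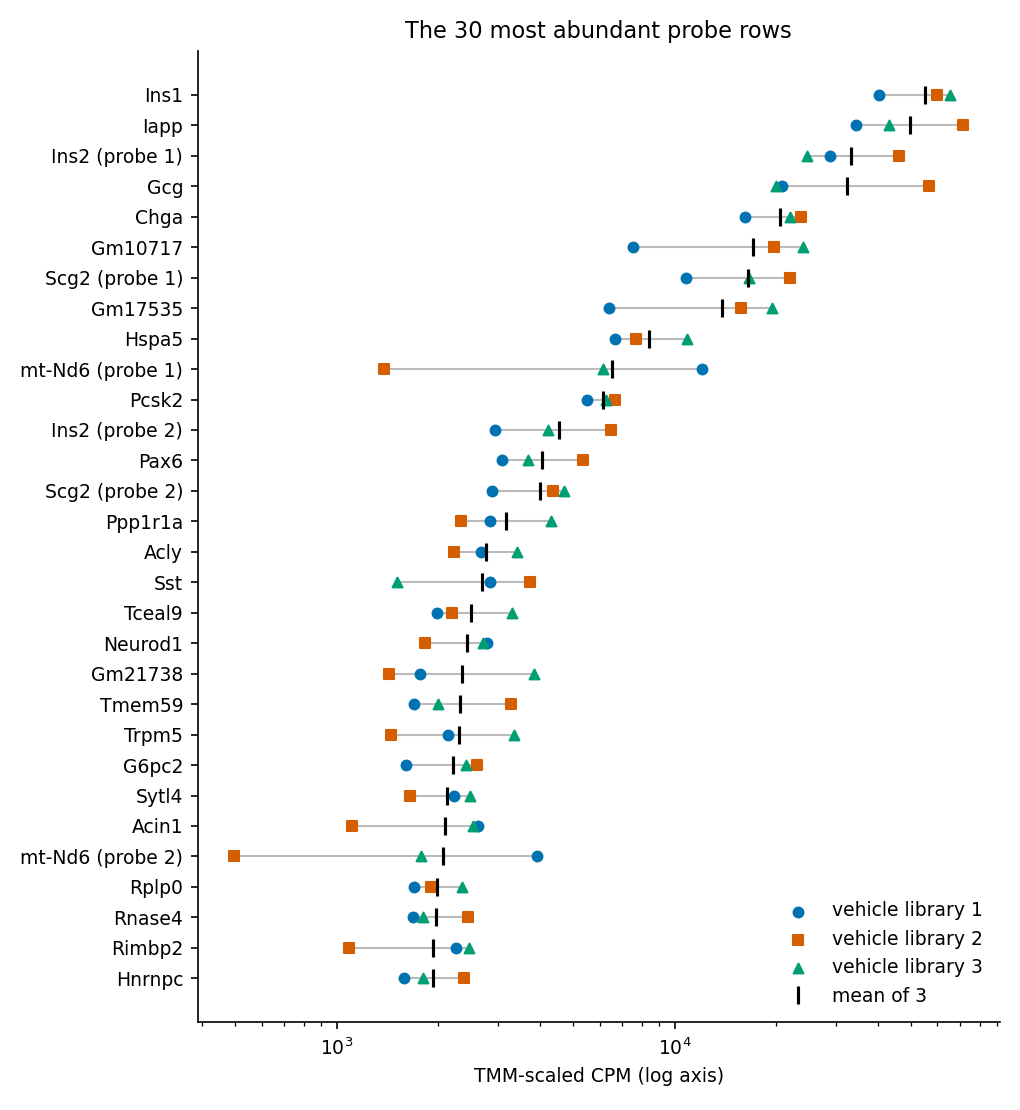
TMM-scaled CPM (log x axis) of the 30 most abundant probe rows, with 1 symbol per vehicle library, the mean of 3 as a black bar and a grey line from the lowest to the highest library. Ins1, Iapp, Ins2 and Gcg lead, and Gcg averages 20329.8 CPM in libraries 1 and 3 against 56772 CPM in library 2, while both mt-Nd6 probes are lowest in library 2.

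The stretches just before the annotated start sites of abundant hormone and granule genes are shown because several carry a TATA box or a cyclic AMP response element, the short elements where general transcription factors and CREB bind. Sequences are the 80 bases upstream of the start from the RefSeq promoter table (GRCm38.p6), read 5′ to 3′ on the gene strand, with TATAA within 50 bases of the start and TGACGT or its reverse complement ACGTCA in capitals.
Ins1: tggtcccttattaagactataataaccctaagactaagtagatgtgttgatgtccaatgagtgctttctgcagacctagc
Iapp: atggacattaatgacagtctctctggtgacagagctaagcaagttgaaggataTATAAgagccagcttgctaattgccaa
Gcg: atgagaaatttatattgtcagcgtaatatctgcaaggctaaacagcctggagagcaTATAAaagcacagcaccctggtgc
Sst: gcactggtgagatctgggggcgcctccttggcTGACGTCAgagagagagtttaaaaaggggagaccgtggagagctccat
Ppy: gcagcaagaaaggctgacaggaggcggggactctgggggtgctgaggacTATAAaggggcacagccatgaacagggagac
Pyy: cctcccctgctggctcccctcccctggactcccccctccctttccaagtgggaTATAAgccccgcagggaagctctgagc
Chga: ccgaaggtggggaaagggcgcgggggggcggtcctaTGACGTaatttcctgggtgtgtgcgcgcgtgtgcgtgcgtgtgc
Scg2: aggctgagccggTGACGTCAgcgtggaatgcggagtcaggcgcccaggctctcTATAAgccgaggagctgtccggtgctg
Hspa5: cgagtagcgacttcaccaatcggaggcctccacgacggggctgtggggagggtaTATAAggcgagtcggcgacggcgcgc
Their positions were chr19:52264217-52264296 for Ins1 (plus strand), chr6:142298345-142298424 for Iapp (plus), chr2:62483654-62483733 for Gcg (minus), chr16:23890845-23890924 for Sst (minus) and chr11:102101320-102101399 for Ppy (minus). Those of the others were chr11:102107833-102107912 for Pyy (minus), chr12:102554861-102554940 for Chga (plus), chr1:79440027-79440106 for Scg2 (minus) and chr2:34772010-34772089 for Hspa5 (plus). The first base of TATAA lay at -27 in Iapp, -24 in Gcg, -31 in Ppy, -27 in Pyy, -27 in Scg2 and -26 in Hspa5. A less upstream annotated start of Pyy had no TATAA in its window. TGACGT began at -48 in Sst and at -44 in Chga.

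The motifs were counted over all genes with an entry in the same table. TATAA was searched on the gene strand in the 50 bases before the start and TGACGT on both strands in the 250 bases before it. The searches were separate, so matches may share a base, and the latter motif overlaps its own reverse complement where the site is a palindrome. TATAA was present in 12.8% of the 78 entries among the 100 most abundant genes, 3.37% of those of the next 900 genes, 2.55% of other detected genes, 11.5% of genes with 0 counts and 5.89% of all 27025 entries. Among these sets of genes the share was highest in the 100 most abundant, with 10 entries, and in those with 0 counts. Genes that had counts but were not detected were not counted as a set. Of 8 hormone genes with an entry 4 held TATAA in the 50 bases before the annotated start. The result depends on which start is annotated, as the Pyy entries show. A window without the string, such as that of Ins1, therefore does not show that the gene lacks a TATA box. TGACGT was present in 19.2% of entries of the 100 most abundant genes, 13.7% of those of the next 900, 12.4% of other detected genes, 4.79% of genes with 0 counts and 7.29% of all entries. A match is a string of letters, and no binding was measured.

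Granule proteins other than hormones were next. Chga, which encodes chromogranin A, a protein of the granule core, ranked 5 in every library with 16122, 23626 and 21956 CPM. Scg2, which encodes secretogranin II, had 10830.5, 21938 and 16661 CPM at its most abundant probe and 2877, 4371 and 4699 CPM at another, lowest in library 1 at both. Other granins were far lower: Chgb, chromogranin B, had 223 ± 5.88 CPM, Scg3, secretogranin III, 336 ± 6.39 CPM, and Vgf, a neuropeptide precursor, 38.1 ± 13.9 CPM. Chgb and Scg3 differed by only 1.05-fold and 1.04-fold between the highest and lowest library at these most abundant probes. Their other probes were less even, with 37.9, 21.3 and 29.6 CPM for Chgb and 39.3, 85.9 and 44.2 CPM for Scg3. Pcsk1n, an inhibitor of prohormone convertase 1, stood at 843 ± 86.4 CPM and Scg5, the chaperone of convertase 2, at 660.0 ± 119 CPM. Of 15 measured granin and cargo genes 11 were detected, and the list took 3.53%, 5.09% and 4.46% of counts.

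Pcsk2, which encodes prohormone convertase 2, was far above Pcsk1, which encodes convertase 1. Pcsk2 had 5498, 6644 and 6284 CPM and ranked 11, with a highest-to-lowest ratio of 1.21. Pcsk1 had 47.6, 56.8 and 56.6 CPM. The spread within each gene was small beside the gap between their probes. The carboxypeptidases Cpd and Cpe, which trim the cut ends of the peptides, had 366 ± 44.1 CPM and 306 ± 36.4 CPM, and Pam, which amidates peptides, had 195 ± 34.3 CPM. In all 8 of 13 processing enzymes were detected, and 7 of those 8 were highest in library 2, against 40.9% of all detected genes.

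In a list of granule membrane, zinc and other membrane genes, which is not confined to granules, 13 of 16 were detected. G6pc2, the islet glucose-6-phosphatase, led this list with 1602, 2605 and 2408 CPM. Cltrn, or collectrin, had 271, 635 and 218 CPM and was more than 2-fold higher in library 2 than in the others. Ptprn, a granule membrane protein and type 1 diabetes autoantigen, had 324, 354 and 371 CPM, and the levels were close in the 3 libraries. Slc30a8, the zinc transporter that loads beta cell granules, had 0, 0 and 2 counts at its 1 probe. That level is within the floor of 3 counts over the group, so this probe gave no usable level for the gene.

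Transcription factors of endocrine cells reached high ranks. Pax6, needed for all islet endocrine lineages, was the leading one with 3089, 5354 and 3693 CPM. Neurod1, an activator of the insulin genes, had 2787, 1822 and 2703 CPM, and Mafa, the activator of mature beta cells, had 1646, 1433 and 2166 CPM. Pax6 was highest in library 2, whereas Neurod1 and Mafa were lowest in it. Nkx2-2 and Nkx6-1, which hold beta cell identity, had 599.9 ± 192 CPM and 436 ± 101 CPM, and St18, a zinc finger factor, had 311 ± 80.3 CPM. Mlxipl, the glucose-responsive factor ChREBP, had 285, 89.5 and 188 CPM and Myt1 had 261, 92.3 and 202 CPM at their most abundant probes. Both of these probes were more than 2-fold lower in library 2. The next Mlxipl probe was also lowest there, with 79.1, 37.6 and 83.0 CPM. The next Myt1 probe was near level, with 103.6, 93.0 and 96.7 CPM. Pdx1, the factor that defines pancreas and beta cells, was under the detection minimum with 8, 2 and 24 counts. Of 24 listed factors 16 were detected and 10 of the 16 were lowest in library 2, against 40.1% of all detected genes. The list held 1.21%, 1.05% and 1.16% of counts, a far closer range than that of the hormones.

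Markers of the other endocrine cells were checked beside the hormones. Of 18 alpha cell genes 9 were detected. Slc7a2, a cationic amino acid transporter, had 1862, 1463 and 1856 CPM and Peg3, an imprinted zinc finger gene, had 478, 501 and 485 CPM. Slc7a2 was lowest in library 2 and Peg3 was nearly level, unlike Gcg. Ttr, transthyretin, had 170.2, 315 and 121 CPM, and Irx1, an alpha cell homeobox factor, had 13.9, 34.1 and 10.04 CPM, both highest in library 2. Ttr is also a liver gene, and liver transcripts were highest in library 2 (the Mup rows summed to 2, 578 and 32 counts). Their part in the Ttr level was not tested. Irx2, a homeobox factor of the same family as Irx1, had 51.3, 36.2 and 40.1 CPM, lowest in library 2. The alpha list thus did not move together: of the 9 detected genes 5 were highest in library 2, 3 in library 1 and 1 in library 3, against 40.9%, 28.5% and 30.6% of all detected genes. For delta and PP cells 8 of 14 genes were detected. Rbp4, retinol-binding protein 4, had 57.8, 81.7 and 27.4 CPM and Hhex, the delta cell homeobox factor, had 36.1, 24.9 and 19.2 CPM, both lowest in library 3.

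Beta cell maturity and surface genes were detected for 20 of 27. Trpm5, a cation channel opened by calcium, had 2141, 1443 and 3342 CPM, and Sytl4, or granuphilin, which docks granules, had 2219, 1643 and 2478 CPM. Both were lowest in library 2 and highest in library 3. Ero1lb, the oxidase that supports insulin folding, had 1092 ± 215 CPM, Gad1, which makes GABA, had 267 ± 45.00 CPM, and Glp1r, the receptor for the incretin GLP-1, had 165, 166 and 233 CPM. Ucn3, urocortin 3, a marker of mature beta cells, had 123, 144 and 177 CPM, highest in library 3. Ffar1, the fatty acid receptor GPR40, had 38.4, 18.5 and 39.2 CPM, lowest in library 2.

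Glucose sensing genes were detected for 22 of 39. Slc2a2, the main glucose transporter of mouse beta cells, was low, with 22.2, 8.52 and 18.7 CPM from 48, 12 and 41 counts. Abcc8, the sulfonylurea receptor subunit of the ATP-sensitive potassium channel, had 1744, 1357 and 1923 CPM at its most abundant probe and 1473, 832 and 1131 CPM at another. Kcnj11, the pore subunit of that channel, had only 40.7, 19.2 and 57.9 CPM and was more than 2-fold lower in library 2. The metabolic genes Gpi1, Glud1 and Gpd1 had 706 ± 48.5 CPM, 227 ± 65.9 CPM and 138 ± 11.3 CPM. Lactate dehydrogenase A, Ldha, which beta cells keep low, had 20.6 ± 6.70 CPM.

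Of 37 ion channel genes 19 were detected, against 31.6% of all genes, at a median of 22.1 CPM. In library 2, 11 of the 19 were lowest (40.1% of all detected genes were). After Trpm5 the most abundant were Kcnma1, a calcium-activated potassium channel with 118, 110.1 and 121 CPM, and Trpm2, a cation channel with 64.3, 70.3 and 68.9 CPM. Both were level across libraries. Hcn3, a pacemaker channel, had 67.05, 19.2 and 72.1 CPM and was lowest in library 2. The L-type calcium channel genes were low: Cacna1c had 19.99 ± 5.03 CPM and Cacna1d had 2, 0 and 0 counts.

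The exocytosis machinery was detected for 32 of 47 genes, and 17 of the 32 were lowest in library 2, a share not far above the 40.1% of all detected genes. Rimbp2, which ties calcium channels to release sites, had 2249.5, 1090.3 and 2459.5 CPM and was more than 2-fold lower in library 2. Pclo, or piccolo, had 380.0 ± 78.8 CPM and Syt13, a synaptotagmin, 375 ± 113 CPM. The SNARE genes were lower: Vamp2 had 121 ± 7.43 CPM, Snap25 20.3 ± 5.75 CPM and Stx1a, or syntaxin 1A, 64.3, 11.4 and 54.3 CPM. Stx1a was 5.66-fold apart with library 2 at the bottom, while Vamp2 was 1.13-fold apart. The list took 0.888%, 0.555% and 0.860% of counts.

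Receptors for hormones and nutrients were detected for 28 of 63 genes, against 31.6% of all genes, and 11 had 0 counts in all libraries. Adgrg1, an adhesion receptor, had 215, 217 and 203 CPM and Casr, the calcium-sensing receptor, had 186, 265 and 157 CPM. Chrm3, the muscarinic receptor through which acetylcholine acts on beta cells, had 209, 83.1 and 175 CPM and was lowest in library 2. Insr, the insulin receptor, had 71.2 ± 22.8 CPM, Gipr, the receptor for the incretin GIP, 73.9 ± 26.2 CPM and Ghr, the growth hormone receptor, 50.2 ± 0.827 CPM. Gcgr, the glucagon receptor, had 3, 5 and 2 counts and was not detected at this depth.

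**Figure D4:**
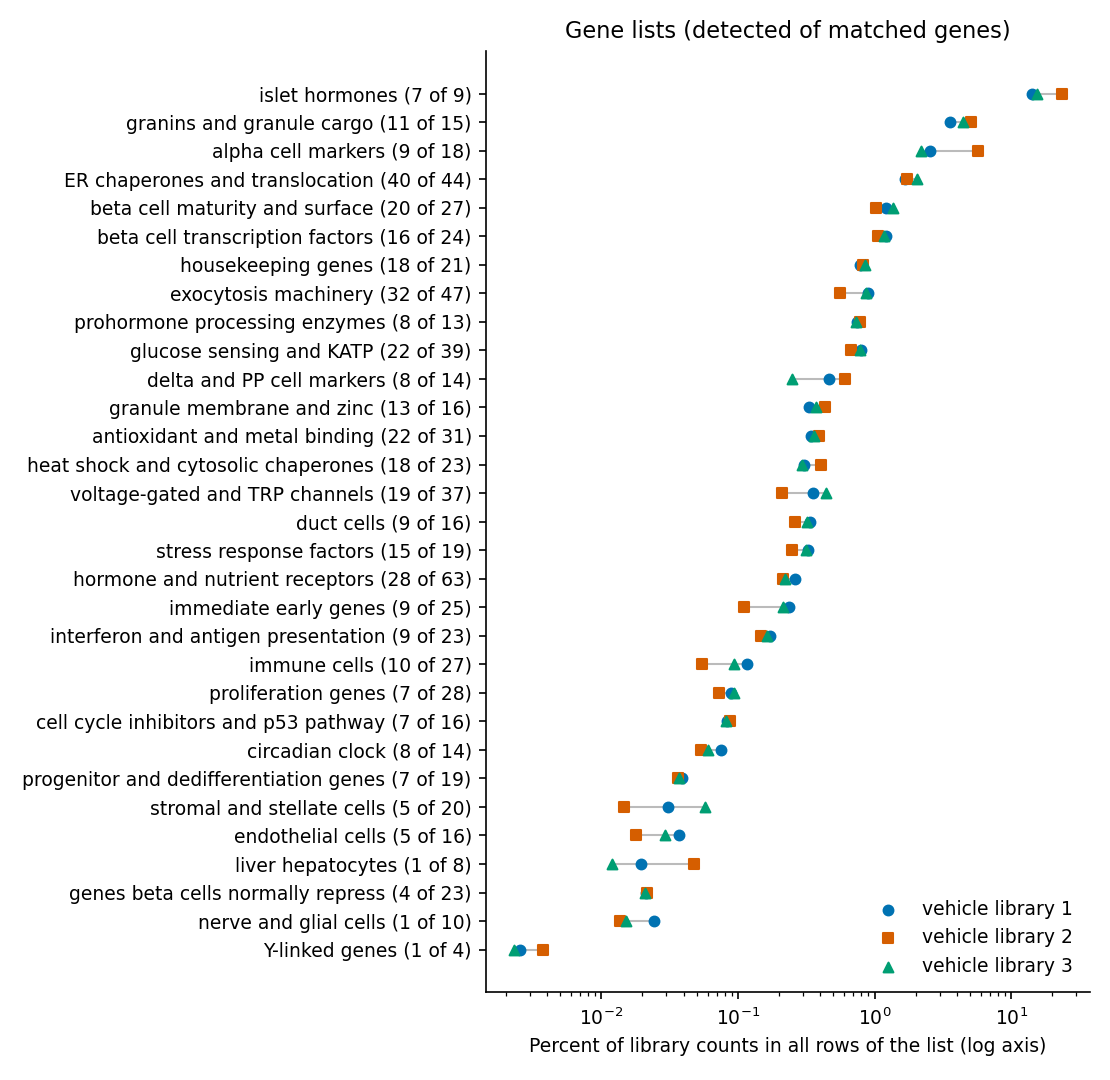
Percent of library counts held by all rows of each gene list (log x axis), with 1 symbol per vehicle library and, in brackets, detected genes of those matched. Hormones (14.2%, 23.6% and 15.4%) and the alpha cell list (2.55%, 5.68% and 2.19%) are shifted to higher values in library 2. The Gcg row, counted in both lists, holds 2.24%, 5.44% and 1.92%, nearly all of the alpha list. Exocytosis, channel, immediate early, immune, endothelial and stromal lists are shifted to lower values in library 2.

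Of the endoplasmic reticulum genes that fold and move secretory proteins, 40 of 44 were detected, the largest detected share among the lists of 10 or more genes that were not defined by name patterns. Hspa5, which encodes the chaperone BiP, ranked 9 with 6642, 7668 and 10887 CPM, highest in library 3. Calreticulin, Calr, had 706, 714 and 764 CPM, the disulfide isomerases Pdia3 and Pdia6 had 694 ± 139.5 CPM and 641 ± 166 CPM, and Hsp90b1, or GRP94, had 328 ± 51.4 CPM. Calr was near level in the 3 libraries, whereas Pdia3 and Pdia6 were lowest in library 1. The list held 1.66%, 1.71% and 2.04% of counts.

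Genes of the unfolded protein and integrated stress responses were detected for 15 of 19. Xbp1, the factor spliced by IRE1, was among the 10 most even of the 1725 rows at 100 CPM or more, with 586, 572 and 568 CPM, while another of its probes had 56.4, 26.99 and 58.4 CPM and was 2-fold lower in library 2. Ppp1r15a, or GADD34, had 323 ± 86.5 CPM, Atf4 282 ± 24.2 CPM, Cebpb 266 ± 62.1 CPM, Trib3 242 ± 56.3 CPM and Ddit3, which encodes CHOP, 192 ± 60.5 CPM. Txnip, a glucose-induced inhibitor of thioredoxin, had 268, 210.2 and 232 CPM. Asns, or asparagine synthetase, had 78.1, 197 and 81.7 CPM and was more than 2-fold higher in library 2. Atf4, its activator, was lowest in library 2 at its most abundant probe, with 291, 255 and 301 CPM, but highest there at another, with 20.8, 44.7 and 26.00 CPM. There is no uncultured islet in these libraries, so no level here can be called raised by culture.

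Heat shock genes and cytosolic chaperones were detected for 18 of 23 genes and 14 of the 18 were highest in library 2, against 40.9% of all detected genes. Hsp90ab1, the constitutive HSP90, had 122, 472 and 106 CPM at its most abundant probe, so its mean of 233 ± 207 CPM was 114 CPM without library 2. Its other probes were closer between libraries. They had 153, 196 and 120 CPM, 132, 210 and 119 CPM, and 15.3, 15.6 and 17.8 CPM, the last highest in library 3. Hspa4 and Hspa9, of the HSP70 family, had 557 ± 27.2 CPM and 435 ± 79.4 CPM, and Hspa8 had 120.3 ± 16.1 CPM. Antioxidant and metal-binding genes were detected for 22 of 31, led by the peroxiredoxin Prdx2 with 505, 929 and 721 CPM and the ferritin heavy chain Fth1 with 304, 277 and 339.8 CPM. Prdx2 was highest in library 2. The metallothioneins Mt1 and Mt2 had 111 ± 46.3 CPM and 182 ± 21.5 CPM. Nnt, the mitochondrial transhydrogenase which is partly deleted in some C57BL/6 substrains, had 66, 84 and 62 counts. The labels give C57Bl/6 without a substrain, and where the probe lies in the gene was not used here.

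Broad housekeeping families were well covered. Of 93 cytosolic ribosomal protein genes 77 were detected, at a median of 125 CPM, and together they took 2.18%, 2.46% and 2.19% of counts. Rplp0 had 1982 ± 335 CPM and Rpl4 1571 ± 180.5 CPM. Of the 77 detected 52 were highest in library 2, where 40.9% of all detected genes were highest. Nuclear genes of respiratory complex I were detected for 28 of 45, led by Ndufb9 with 693 ± 202 CPM, and 21 of the 28 were highest in library 2, against the same 40.9%. ATP synthase subunits were detected for 15 of 16 genes and proteasome subunits for 25 of 40, led by Psmb3 with 606 ± 71.6 CPM. The vacuolar proton pump, which acidifies granules, was detected for 13 of 22 genes, led by Atp6v1d with 1246 ± 299 CPM. Actb, or beta-actin, had 146 ± 20.9 CPM, Gapdh 165 ± 30.8 CPM and Actg1, or gamma-actin, 1645 ± 355 CPM, so the usual reference genes sat far below the hormones.

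Of 123 detected zinc finger genes of the Zfp series 62 were lowest and 40 were highest in library 2, against 40.1% and 40.9% of all detected genes. Solute carriers were detected for 100 of 374 genes, led by Slc7a2 and by Slc38a10, an amino acid transporter with 1661 ± 825 CPM. Histone genes were detected for 34 of 69 and collagens for 9 of 45. Of the 9 detected collagens 7 were lowest in library 2 (40.1% of all detected genes were), with Col4a2, a basement membrane collagen, at 100.3, 30.5 and 123 CPM.

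The mitochondrial genome was represented almost wholly by mt-Nd6, a complex I subunit and the protein gene encoded on the light strand. Its most abundant probe ranked 10 with 12072, 1384 and 6124 CPM, and the other ranked 26 with 3915, 497 and 1769.8 CPM. Library 1 was highest and library 2 lowest at both, 8.72-fold and 7.88-fold apart, and without library 2 the mean of the first was 9098 CPM. Of 8 mitochondrially encoded genes 6 were detected, but the next, mt-Cytb, had only 21.5 ± 11.1 CPM. The share of mitochondrially encoded rows, 1.74%, 0.188% and 0.770%, therefore came almost wholly from these mt-Nd6 probes. Its mean of 0.900% was 0.479% without library 1.

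Several predicted genes sat among the most abundant rows. Gm10717 ranked 6 with 7547, 19746 and 23916 CPM, Gm17535 ranked 8 with 6380.5, 15735 and 19432 CPM, and Gm21738 and Gm10720 had 2342 ± 1302 CPM and 1538 ± 709 CPM. All were highest in library 3, and all but Gm21738 were lowest in library 1. This order across libraries was also that of Ins1, but not that of Iapp, Ins2 or Gcg. Genes of the Gm series took 2.77%, 4.52% and 5.79% of counts. In the GENCODE M21 annotation of GRCm38, Gm10717 lies on chromosome 9 from 3025417 to 3033289, Gm17535 on chromosome 9 from 3034599 to 3035805, Gm10720 on chromosome 9 from 3015654 to 3017210 and Gm21738 on chromosome 14 from 19415857 to 19418930. Of the 30-base stretches of the annotated transcripts, 90.3% of those of Gm17535, 61.9% of those of Gm10720 and 35.9% of those of Gm21738 also occur in Gm10717. The 4 genes share 84 such stretches, and 1 of them is shown as sequence that they have in common.
Shared stretch: atgtttctcattttccatgattttcagttt
Whether the probes lie in shared stretches cannot be told from the table, so these rows are uncertain as levels of single genes. Gm2000, with 1330.0 ± 539.8 CPM, shares no such stretch with them.

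The other rows among the 30 most abundant held metabolic, signalling and RNA-binding genes. Ppp1r1a, an inhibitor of protein phosphatase 1, had 2849, 2335 and 4295 CPM, and Acly, the ATP citrate lyase that supplies acetyl-CoA for lipid synthesis, had 2673, 2218 and 3409.7 CPM. Both were highest in library 3 and lowest in library 2. Tceal9 had 1974, 2198 and 3294 CPM and the membrane protein gene Tmem59 had 1689, 3269 and 1991 CPM. Acin1, a nuclear RNA-binding protein, had 2624, 1111 and 2524 CPM, more than 2-fold lower in library 2. Rnase4, a secreted ribonuclease, had 1684, 2441 and 1795 CPM, and Hnrnpc, which binds nascent transcripts, had 1582, 2384 and 1802 CPM. Tmem59, Rnase4 and Hnrnpc were all highest in library 2.

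The islet label was checked against markers of other cells. Signal of exocrine acinar genes was at or near 0: 0 of 23 were detected and 5 had 0 counts in all libraries. Cela1, an elastase, had 7, 5 and 8 counts and Cpa1, a carboxypeptidase, 0, 2 and 1 counts. Red blood cell and adipocyte genes were not detected either, 0 of 6 in both. Duct genes gave a mixed picture. Krt7 ranked 40 with 1453, 1063 and 1617 CPM, and Krt8 and Krt18, keratins of simple epithelia, had 205, 206 and 207 CPM and 122, 107 and 120.0 CPM. Yet Sox9, the duct factor, had 0 counts in every library, which allows up to 3 counts over the group, and Krt19, the usual duct keratin, had 2, 0 and 6 counts. In all 9 of 16 duct genes were detected and 2 were at 0.

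Immune genes were detected for 10 of 27, and 8 were at 0. The detected shares of the immune, endothelial and stromal lists were 37.0%, 31.25% and 25%. Over all genes 31.6% were detected and 5504 of 21400 were at 0. The detected counts thus do not set these lists apart from other genes. Apoe, apolipoprotein E, led with 581, 273 and 612 CPM, followed by H2-Aa, a class II molecule with 50.9, 38.4 and 52.00 CPM, Cd74, the invariant chain with 65.2, 14.9 and 48.8 CPM, and the complement genes of macrophages C1qb and C1qa with 38.8 ± 6.45 CPM and 33.05 ± 6.69 CPM. Apoe and Cd74 were lowest in library 2. Ptprc, the pan-leukocyte gene CD45, had 12, 1 and 12 counts. Endothelial genes were detected for 5 of 16, with 1 at 0, led by Esm1 with 132, 83.1 and 115 CPM and the VEGF receptor Kdr with 51.8, 30.5 and 39.2 CPM. Pecam1, or CD31, had 4, 0 and 4 counts. Stromal genes were detected for 5 of 20, led by Sparc with 70.3, 31.3 and 113 CPM and the pericyte gene Rgs5 with 36.99, 43.3 and 42.9 CPM. Col1a1, a fibrous collagen, had 22.2, 2.84 and 62.5 CPM and Col3a1 had 21, 1 and 45 counts, so library 3 held the most stromal signal and library 2 the least. The stromal list summed to 223, 136 and 414 CPM, the endothelial list to 292, 175 and 256 CPM and the immune list to 907, 484 and 879 CPM. Apoe alone, with 581, 273 and 612 CPM, was the larger part of the immune sum in each library.

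Nerve and glial genes were detected for 1 of 10, against 31.6% of all genes, and 4 were at 0. The detected gene was Th, tyrosine hydroxylase, with 188, 117 and 127 CPM. Sox10 had 3, 1 and 8 counts. As a check of sex, Ddx3y, a Y-linked helicase, had 41, 32 and 45 counts, present in each library of these male mice. The other Y-linked genes were low, with 3, 14 and 3 counts for Uty.

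Library 2 also carried transcripts that the other libraries nearly lacked. Rows with 20 or more counts in 1 library and at most 1 count in each other, a filter chosen after the values were seen, numbered 1 for library 1, 18 for library 2 and 2 for library 3. Those of library 2 were mostly genes that hepatocytes express. Mup13, a major urinary protein, had 0, 119 and 0 counts, Serpina3k, a serine protease inhibitor, had 0, 107 and 0 counts, and Fabp1, the liver fatty acid-binding protein, had 0, 76 and 0 counts. Alb, the albumin gene, had 3, 133 and 0 counts. The 24 Mup rows summed to 2, 578 and 32 counts, and the liver list without Ttr, 7 genes, to 19, 203 and 6 counts. In library 3 the rows were Igkc, the kappa light chain constant gene with 0, 0 and 38 counts, and Jchain with 0, 0 and 22 counts, both genes of plasma cells. The part of liver transcripts in the other differences of library 2 was not tested.

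Genes that beta cells normally keep silent were low. Of 23 such genes 4 were detected, against 31.6% of all genes. Catalase, Cat, had 68.8 ± 14.2 CPM, Ldha 20.6 ± 6.70 CPM, Lmo4 19.2 ± 5.91 CPM and Zyx 11.2 ± 3.50 CPM. The list held 0.0211%, 0.0214% and 0.0208% of counts. Progenitor and dedifferentiation genes were detected for 7 of 19, among them Cd44, an adhesion receptor, with 74.3 ± 22.98 CPM. Aldh1a3, a marker of dedifferentiated beta cells, had 0, 0 and 1 counts, and Neurog3, the endocrine progenitor factor, had 0, 1 and 3 counts.

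Proliferation genes were detected for 7 of 28. The detected ones were Ccnd2, the main D cyclin of beta cells, with 324 ± 55.9 CPM, then Ccnd3, Hmgb2, Ccnd1, Mcm2, Pcna and Cdk4 between 24.3 and 61.6 CPM. Mki67 had 4, 0 and 2 counts and Top2a 1, 2 and 9 counts, both under the detection minimum. Of 16 cell cycle inhibitor and p53 pathway genes 7 were detected, led by Bax, a mitochondrial apoptosis effector, with 414 ± 47.3 CPM and Ccng1 with 148 ± 46.6 CPM. Cdkn1a, the inhibitor p21, had 35.6, 68.9 and 45.6 CPM, highest in library 2.

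Immediate early genes were detected for 9 of 25. Jund led with 1556, 754 and 1772 CPM, more than 2-fold lower in library 2. Dusp1, a phosphatase of MAP kinases, had 163, 68.9 and 100.4 CPM, Egr1 had 71.7, 51.1 and 19.2 CPM and Fos had 50.4, 27.7 and 29.2 CPM. Of the 9 detected, 7 were highest in library 1 and 0 in library 2, against 28.5% and 40.9% of all detected genes. Clock genes were detected for 8 of 14, led by Cry2 with 227 ± 22.3 CPM and Dbp with 113 ± 18.6 CPM. Interferon and antigen presentation genes were detected for 9 of 23, led by H2-K1, a class I heavy chain with 536, 542 and 615 CPM. B2m, the light chain that pairs with it, had 5, 4 and 5 counts, a gene singled out after its values were seen.

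Sensory and other tissue-restricted families were silent. Olfactory receptors were detected for 0 of 1171 genes and 794 had 0 counts in all libraries. Vomeronasal receptors were detected for 1 of 309, and that gene, Vmn2r29, had 21.7, 22.02 and 21.9 CPM. Taste receptors (38 genes), beta-defensins (35), keratin-associated proteins (46), interleukins (35) and Hox genes (39) were detected for 0 members. Il23a, the most abundant interleukin, had 4.69 ± 3.81 CPM. Of 49 keratins 3 were detected, Krt7, Krt8 and Krt18, and 36 were at 0. The 1301 olfactory receptor rows summed to 0.00566%, 0.0125% and 0.0201% of counts, which gives a measure of background.

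The spread between libraries, which come from separate mice, is set here beside counting error. Of the 8805 detected rows, 2369 (26.9%) were at least 2-fold apart between the highest and lowest library. Among rows detected in the 2 libraries left, this count was 539 (5.24%) without library 2, 1620 (17.9%) without library 1 and 1571 (17.4%) without library 3. A ratio over 2 libraries is narrower by design than one over 3, so these shares compare with each other and not with 26.9%. The common biological coefficient of variation, edgeR's estimate of the spread beyond counting, was 0.273 with all libraries and 0.170 without library 2. The median coefficient of variation was 29.0% for rows under 30 CPM, where counting alone gives 18.3%, and 18.9% for rows between 100 and 300 CPM, where counting gives 5.74%. It rose again to 26.7% for the 64 rows at 1000 CPM or more, where counting gives 1.71%. The most abundant rows were therefore not the most even ones.

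Among 1725 rows at 100 CPM or more, 255 (14.8%) were at least 2-fold apart. The widest was Whrn, or whirlin, a scaffold protein, with 166, 21.3 and 189 CPM, a ratio of 8.86. The 2 mt-Nd6 rows followed, and then Nisch, an imidazoline-binding protein, with 174, 46.2 and 229.9 CPM at its second most abundant probe, Tshz3, a zinc finger factor, with 204, 43.3 and 209.8 CPM, and Zfp335 with 146, 31.96 and 125 CPM. The remaining 4 of the 10 widest were Hsp90ab1, the kinase Abl1 (4.07), Lrrc10b (3.93) and Crebzf (3.86), given as ratios. Library 2 was the lowest in 9 of these 10 rows, and the highest for the Hsp90ab1 row, which is its most abundant probe. The most even row was one of Krt8, with a ratio of 1.01, followed by Slc45a4 (1.02), Eif3j1 (1.02), Gnb5 (1.03) and Inppl1 (1.03). Another Krt8 probe was less even, with 79.1, 127 and 98.5 CPM. Xbp1, Rpl28, BC005537, Tspan2 and Pacc1 completed the 10 most even rows, with ratios of 1.03.

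Probes of the same gene often disagreed in level. Of 6309 genes with more than 1 probe, 924 had the most abundant probe at 100 CPM or more, and in these it exceeded the next by a median of 7.12-fold, with quartiles of 2.72 and 23.8. The ratio was 10-fold or more in 376 genes (40.7%) and under 2-fold in 151 (16.3%). The order of probes was the same in all 3 libraries in 880 of the 924 genes (95.2%). Ins1 had the widest ratio among genes whose less abundant probe had more than 3 counts, 4721-fold, as that probe gave only 31, 15 and 22 counts. Ins2 probes, in contrast, gave 33289 ± 11450.2 CPM and 4557 ± 1796 CPM. Itfg1 (802-fold), Kmt2c (546-fold), Rbbp4 (372-fold) and Impdh1 (351-fold) came next. Where the less abundant probe had 0 counts, the ratio was at least 1640-fold for Rpl13-ps3 and at least 667-fold for Zhx3 and Cnot10, taking 3 counts over the group as the floor. Ddr1, Gaa, Kif1a, Cebpb and Hsp90aa1 had the closest pairs, within 1.02-fold. Slc30a8, Pdx1, B2m, Sox9 and Krt19 have 1 probe row each, so no other probe could be set beside their low counts.

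**Figure D5:**
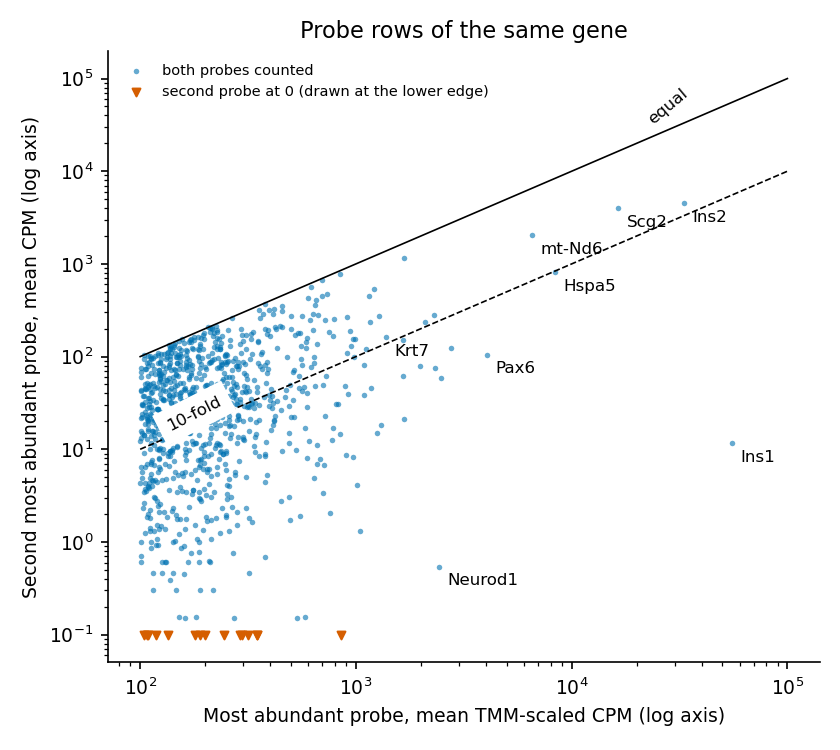
Mean TMM-scaled CPM of the most abundant probe (log x axis) against the next most abundant probe of the same gene (log y axis) for 924 genes, with lines at equality and at a 10-fold ratio and 15 genes whose less abundant probe had 0 counts drawn at the lower edge. Many genes fall under the 10-fold line, with Ins1 (4721-fold) and Neurod1 farthest from equality among the labelled genes.

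Probe pairs gave another reading of library 2. In 692 genes both leading probes were detected, and the log2 ratio of library 2 to the mean of the others at a probe had a Pearson correlation of 0.49 with that at the other probe, and 0.62 in the 217 genes with 100 or more counts at both probes in every library. For the ratio of library 1 to library 3 the values were 0.13 and 0.17. These correlations run across genes, which are not independent replicates, and the points share libraries. The most abundant probe was at least 2-fold lower in library 2 for 40 of the 692 genes and the other probe for 50, with 8 genes in common, 20% of the former and 16% of the latter. The most abundant probe was at least 2-fold higher in library 2 for 5 genes and the other probe for 26, with 1 gene in common. Probes that were 2-fold low and 2-fold high in library 2 within the same gene occurred in 0 of the 692 genes. With so few high probes, this count says little about agreement between probes.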

How the data were processed

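The authors deposited raw counts as whole numbers per probe row and library, without normalization. Per the labels' protocols, lysates were assayed with the mouse whole transcriptome probe set (version 1.1) of TempO-Seq. Tools listed in the submitters' processing notes are DESeq2 1.44.0, STAR 2.7.10b and fastp 0.23.2; what each did and the alignment target are not given in the sources. The gene symbol was taken from the row name, without its trailing number. The 3 vehicle columns were used, and the 3 cisplatin columns of the table were not.

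Counts were scaled with TMM factors in edgeR 4.0.16 (R 4.3.3) over the vehicle libraries, and levels are CPM on that scale, with SD over 3 libraries. Depth was between 1470227 and 2272276 counts. A gene or row was called detected at 10 or more counts in every vehicle library. There is 1 condition, so no test between groups was made. As a check for a library deposited again under another name, the chi-square between pairs of libraries was 11.0 to 23.7 per row, so no pair was the same library. A floor of 3 counts over the group stands for rows at 0. It reflects counting error alone, as reads after amplification are not separate molecules.

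Genes came from 35 lists and 28 families defined by name patterns. The members and lists were chosen with earlier results of these data known. Named were the 30 most abundant rows, up to 5 most abundant genes of a list and 3 of a family, the 10 widest and 10 most even rows at 100 CPM or more, the 5 genes with the largest and smallest probe ratios, a list of fixed islet genes, and others singled out where stated; low members were also named where their role made the level informative, which was decided after their values were seen. Symbols were matched to the table directly or through RefSeq synonyms. Listed genes without a row used here, Xist among them, were left out, and some genes that the rule names are not reported here. Promoters are from RefSeq (GRCm38.p6) and transcripts from GENCODE M21. Figures were drawn with matplotlib 3.10.9. Alternatives were RLE factors, library totals, other count minimums, thinning to the shallowest library, summed probes, mitochondrially encoded rows left out and each library left out.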

Additional observations from a re-analysis of the deposited data

How the results depend on the processing

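Numbers of detected rows and of wide rows depend on the count minimum. With a minimum of 30 counts 5441 rows were detected in place of 8805. Rows at least 2-fold apart numbered 2369 as reported, 247 with a minimum of 100 counts in every library and 3952 with a minimum of 10 counts in the mean. Leaving out each library in turn, so that the ratio runs over 2 libraries, gave 539 to 1620 such rows. The lowest count was without library 2, and 1571 were found without library 3. The common biological coefficient of variation ranged from 0.170 without library 2 to 0.318 without library 1, against 0.273. The median probe ratio was 17.8 among genes with the leading probe at 1000 CPM or more, in place of 7.12. Of 63 shares of counts by list and family above 0, 2 moved by more than 1.5 times without library 1, 2 without library 2 and 3 without library 3. The mitochondrially encoded share was 0.900%, and 0.479% without library 1. The stromal share was 0.0344%, and 0.0227% without library 3. The liver share was 0.0263%, and 0.0157% without library 2. The other 4 were lists near 0. Of 657 named levels 58, 66 and 91 moved by more than 1.5 times without libraries 1, 2 and 3. RLE factors and library totals moved 0 of 657 named levels by more than 1 SD, and summing probes moved 116 of 321. No paired analysis was possible because only vehicle libraries were analysed and no groups were compared. With 3 libraries, 1 of which stands apart, SDs are imprecise, and a level under about 10 counts cannot be ordered between libraries.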

Other observations

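Further families, not described above, gave the following levels. Translation factors were detected for 53 of 69 genes, with a median highest-to-lowest ratio of 1.41, and Eif2s2, a subunit of the initiation factor eIF2, led with 1382 ± 108 CPM. Rab GTPases, which direct vesicle traffic, were detected for 33 of 59 genes, led by Rab2a with 320.0, 966 and 473 CPM, highest in library 2. Sdha, a subunit of respiratory complex II, had 1169, 1203 and 1539 CPM, far above Sdhc, another subunit, with 131, 346 and 144 CPM. Mitochondrial ribosomal proteins were detected for 46 of 76 genes at a median of 22.8 CPM, against 125 CPM for the cytosolic ones. Cathepsins, the lysosomal proteases, were detected for 6 of 18 genes, and Ctsl, or cathepsin L, had 8.32, 38.4 and 13.7 CPM. Voltage-gated potassium channels were detected for 13 of 94 genes, and 8 of the 13 were lowest in library 2, against 40.1% of all detected genes. RIKEN cDNA genes were detected for 80 of 495, and the most abundant, 4933434E20Rik, had 493 ± 141 CPM.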
